A study of Lytechinus variegatus with 23 samples.

Results

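The genes described here are those of the sea urchin Lytechinus variegatus whose sea urchin name marks them as extracellular matrix proteins, integrins, or metalloproteases and their inhibitors. They were found by name, as the collagen, laminin, fibronectin, fibrillin, Fras, Frem, nidogen, perlecan (Hspg), thrombospondin, integrin, Timp, Adam, Tll and Bmp1 families, with any name that contains Mmp. Such a name was carried by 108 of the 27231 gene IDs counted. The match used names alone, but the families were chosen with earlier results of these data known. They were 4 fibrillar collagens, 20 other collagens, 9 laminins, 6 nidogen-type IDs, 6 fibrillins, 4 Fras or Frem genes, 1 integrin, 11 Timp genes, 23 Adamts genes, 5 Adam genes, 7 Tll or Bmp1 genes and 12 Mmp genes. No thrombospondin ID carried a matching name, and the integrins were represented by a single alpha chain ID. Names were not checked beyond the table: 59 of the 108 IDs shared a symbol with another ID, so reads of near-identical copies or of gene fragments could be split between them. Col4a3bp is a ceramide transfer protein and no collagen, and Tll_1 can also be read as the nuclear receptor tailless. The 23 Adamts IDs include Adamts-like names, such as Adamtsl1 and Adam/TsL3, and were not checked to be proteases.

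The study exposed embryos to alizarin, a dye that binds calcium and labels mineralised skeleton, and sequenced RNA of whole embryos. Controls and alizarin-treated embryos were sampled 12, 18, 24 and 30 h after fertilisation (hpf below). There were 23 libraries in 8 groups, with letters A, B and C in each group but for alizarin at 18 hpf, which had B and C. The labels give no dose, exposure window or vehicle, and do not say whether the libraries of a group came from separate cultures, so p-values measure the spread between libraries.

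A basement membrane is a sheet of type IV collagen and laminin, linked by nidogen, that lies under every epithelium; fibrillar collagens form the looser matrix between tissues. In the sea urchin embryo this matrix lines the blastocoel, the cavity in which skeletogenic and other mesenchyme cells migrate, and interfering with collagen or with metalloproteases is known to disturb the growth of the skeleton. Matrix metalloproteases (Mmp), Adam and Adamts proteases and the tolloid-type proteases (Tll, Bmp1) cut matrix and surface proteins, and Timp proteins bind and inhibit metalloproteases.

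The libraries held 8194215 to 11730004 counts, and members took between 0.305% of the counts (alizarin 30 hpf A) and 1.01% (alizarin 12 hpf A). Of the 108 members 69 passed the filter on low counts; the other 39 had at most 91 reads over all libraries. A member that passed because it was high in a single group had to differ, so counts over the 69 describe them only. Levels are CPM, the reads of a gene as a share of the library's reads, after scaling by the trimmed mean of M values (TMM). They are not divided by gene length and so are not compared between genes. By the distance between libraries of a group, control 12 hpf A, control 18 hpf C, control 30 hpf B and alizarin 24 hpf C stood apart from the other 2 libraries of their group. Alizarin 12 hpf A also stood apart among the members, for example at 558 CPM of Frem1L (L_var_01008) against 116 and 189 CPM in the other alizarin libraries of that time.

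At 12 and 18 hpf the quasi-likelihood test in edgeR called 0 of the 69 tested members between alizarin and control at an adjusted p under 0.05. The share called among all genes tested was 0.0977% at 12 hpf and 0% at 18 hpf. Before adjustment p was under 0.05 at 12 hpf for 9 members that were higher and 5 that were lower (16.1% of all genes), and at 18 hpf for 1 and 3 (5.67%). DESeq2 called 2 members at 12 hpf (3.79% of all genes by DESeq2) and 1 at 18 hpf (0.277%). At 12 hpf edgeR called 2 without control 12 hpf A. It called 5 with the 4 libraries that stood apart left out together, where 8.06% of all genes were called. At 24 hpf 4 of 69 members were called (0.842% of all genes), 1 higher (0.119%) and 3 lower (0.722%). At 30 hpf 12 of 69 were called (3.32%), 3 higher (1.12%) and 9 lower (2.2%). With upper quartile scaling the calls of 30 hpf over all genes shifted from 207 higher and 405 lower to 269 and 317, and those of the members from 3 and 9 to 3 and 8. The median log2 fold change of the members, alizarin over control, was 0.17 at 12 hpf, -0.00 at 18 hpf, -0.26 at 24 hpf and -0.44 at 30 hpf. The medians over all genes were 0.02, -0.01, 0.02 and 0.03 at those times. At 30 hpf the alizarin libraries all lay above the controls for 6 members and all below for 25 (over all genes 14.5% and 17.8%), and at 24 hpf for 2 and 15 (6.72% and 10.7%). Single libraries moved the number of calls. At 24 hpf it was 2 without control B, control C, alizarin B or alizarin C of 24 hpf, 1 without alizarin 24 hpf A, 7 without control 12 hpf A, 9 without alizarin 12 hpf A and 8 without alizarin 12 hpf B. At 30 hpf it was 6 without control B, 7 without alizarin B and 5 without alizarin C of that time. With the 4 libraries that stood apart left out together it was 7 (2.49% of all genes), 2 higher and 5 lower.

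**Figure D1:**
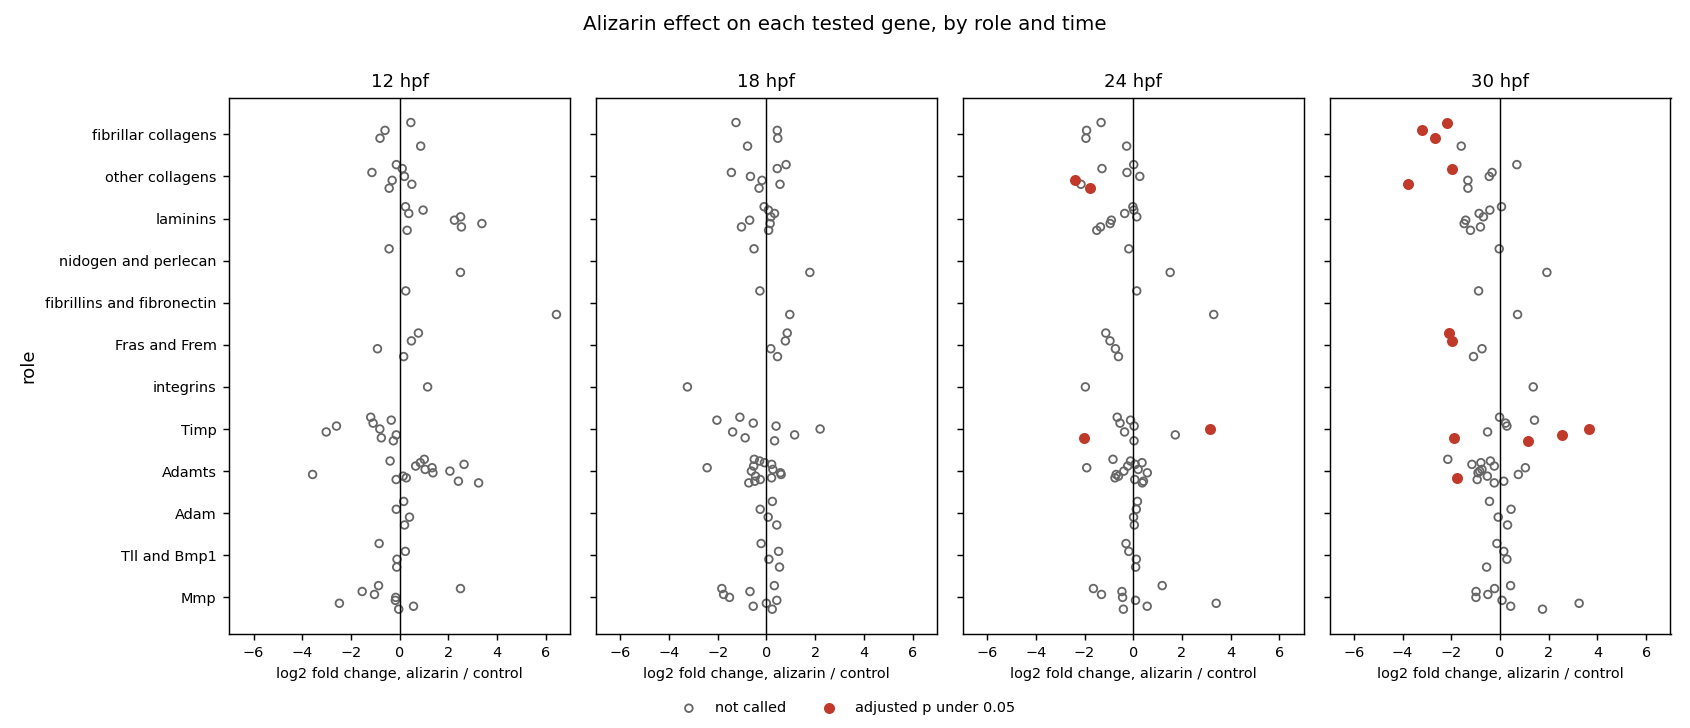
Log2 fold change, alizarin over control, of each of the 69 tested members (points) by role (rows) at each time (panels); filled points passed an adjusted p under 0.05 in edgeR. No point is filled at 12 or 18 hpf, 4 are at 24 hpf and 12 at 30 hpf, where the collagen and Frem calls lie to the left and Timp calls lie on both sides.

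Of the 4 fibrillar collagen IDs 3 fell in alizarin embryos at 30 hpf (2.2% of all genes tested), and the fourth, Fcolf_2 (L_var_23616), was at 2.36 CPM in controls and 0.774 CPM with alizarin (adjusted p = 0.301). Fibrillar collagen chains assemble into the cross-linked fibres of connective tissue. FcolI/II/IIIf L_var_06442 stood at 238, 292 and 204 CPM in the 3 controls of 30 hpf and at 33.6, 23.1 and 22.1 CPM in the alizarin libraries. The groups did not overlap and their means differed 9.30-fold (log2 fold change -3.22, SE 0.48, adjusted p = 8.96e-04 in edgeR). A second ID of the same symbol, L_var_06444, read 490, 613 and 452 CPM in controls and 97.2, 77.0 and 73.8 CPM with alizarin (log2 fold change -2.65, SE 0.50, adjusted p = 0.00617). The log2 CPM of the 2 IDs correlated at r = 0.991 over the 23 libraries, as a description of IDs that share a name and may share reads.

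Both FcolI/II/IIIf IDs reached their 18 hpf level with alizarin too, and the groups parted afterwards. At 12 hpf L_var_06442 was at 1.46, 2.34 and 2.96 CPM in controls and 2.44, 0.192 and 1.68 CPM with alizarin. At 18 hpf the controls read 42.0, 28.6 and 58.8 CPM and the 2 alizarin libraries 44.8 and 72.5 CPM, so that the groups overlapped at both times. At 24 hpf the controls had gone on to 133, 358 and 220 CPM while the alizarin libraries read 49.0, 77.3 and 62.6 CPM. That gap had no overlap, but it missed the threshold in edgeR (log2 fold change -1.92, SE 0.46, adjusted p = 0.0508), as did that of L_var_06444 (-1.94, SE 0.48, adjusted p = 0.0604); DESeq2 called both (adjusted p = 0.00142 and 0.00338). Between 24 and 30 hpf the mean of L_var_06442 was steady in controls, at 237 and 244 CPM, and was 63.0 and 26.3 CPM with alizarin. The size of its alizarin effect differed between the 4 times (adjusted p = 0.043), a call lost in 17 of the 23 fits that left out 1 library (up to adjusted p = 0.129). With the library letter as a block the call was lost too (adjusted p = 0.0638 within each time and 0.0545 over all libraries).

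Fcolf_1 (L_var_02158), another fibrillar collagen ID, appeared later in development. Controls read 4.21, 12.0 and 5.001 CPM at 24 hpf and 30.0, 24.5 and 31.3 CPM at 30 hpf. The alizarin libraries read 3.54, 2.54 and 2.38 CPM at 24 hpf and 4.80, 6.38 and 7.82 CPM at 30 hpf. All alizarin libraries lay below all controls at both times, and the 30 hpf difference passed (log2 fold change -2.17, SE 0.54, adjusted p = 0.0315) while that at 24 hpf did not (-1.32, SE 0.54, adjusted p = 0.322). At 12 and 18 hpf every library was under 3 CPM. Leaving out any 1 of the 6 libraries of 30 hpf ended the Fcolf_1 call (up to adjusted p = 0.118), as did leaving out the 4 libraries that stood apart (adjusted p = 0.0518).

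In other sea urchins collagen transcripts have been placed in mesenchyme cells, among them the skeletogenic cells, and in RNA of whole embryos fewer cells of a type and less RNA per cell cannot be told apart. Of 19 skeletogenic marker IDs (Alx1, Sm50, Msp130, Kirrel and P16 genes) 17 were tested. Of these 2 were called lower at 24 hpf (0.722% of all genes) and 3 at 30 hpf (2.2%), with 0 higher at either time. The summed level of the 19 was 3190 to 5259 CPM in controls and 1650 to 1832 CPM with alizarin at 24 hpf. At 30 hpf it was 3017 to 3271 against 1438 to 2862 CPM. The 3 pigment cell markers summed to 1873 to 2335 against 691 to 1016 CPM at 24 hpf and to 808 to 984 against 199 to 401 CPM at 30 hpf. Of the 3 pigment markers 1 was called lower at 30 hpf (2.2% of all genes). The 6 endoderm markers summed to 1902 to 2820 against 1200 to 2575 CPM at 24 hpf and 1344 to 1581 against 1362 to 1725 CPM at 30 hpf, with 0 called in edgeR. The 4 blastocoelar and muscle markers summed to 28.8 to 30.5 CPM in controls of 30 hpf and 33.5 to 55.3 CPM with alizarin, with 29.7 to 36.4 and 28.6 to 41.7 CPM at 24 hpf and 0 called in edgeR at either time. The 5 ectoderm markers summed to 214 to 290.2 CPM in controls and 170.5 to 199 CPM with alizarin at 24 hpf, where 0 were called. At 30 hpf they summed to 176 to 199 against 206 to 304 CPM, and 1 was called higher (1.12% of all genes). The 2 FoxQ2_1 IDs of the apical ectoderm, both called higher at 30 hpf (1.12% of all genes), summed to 5.23 to 7.74 CPM in controls and 192 to 234 CPM with alizarin. At 24 hpf, with 0 called, they summed to 41.4 to 193 and 68.0 to 323 CPM. Of the 39 marker IDs only Msp130r6L (L_var_21937) was at 0 in every library of a group. The part of these shifts in the collagen results was not tested.

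**Figure D2:**
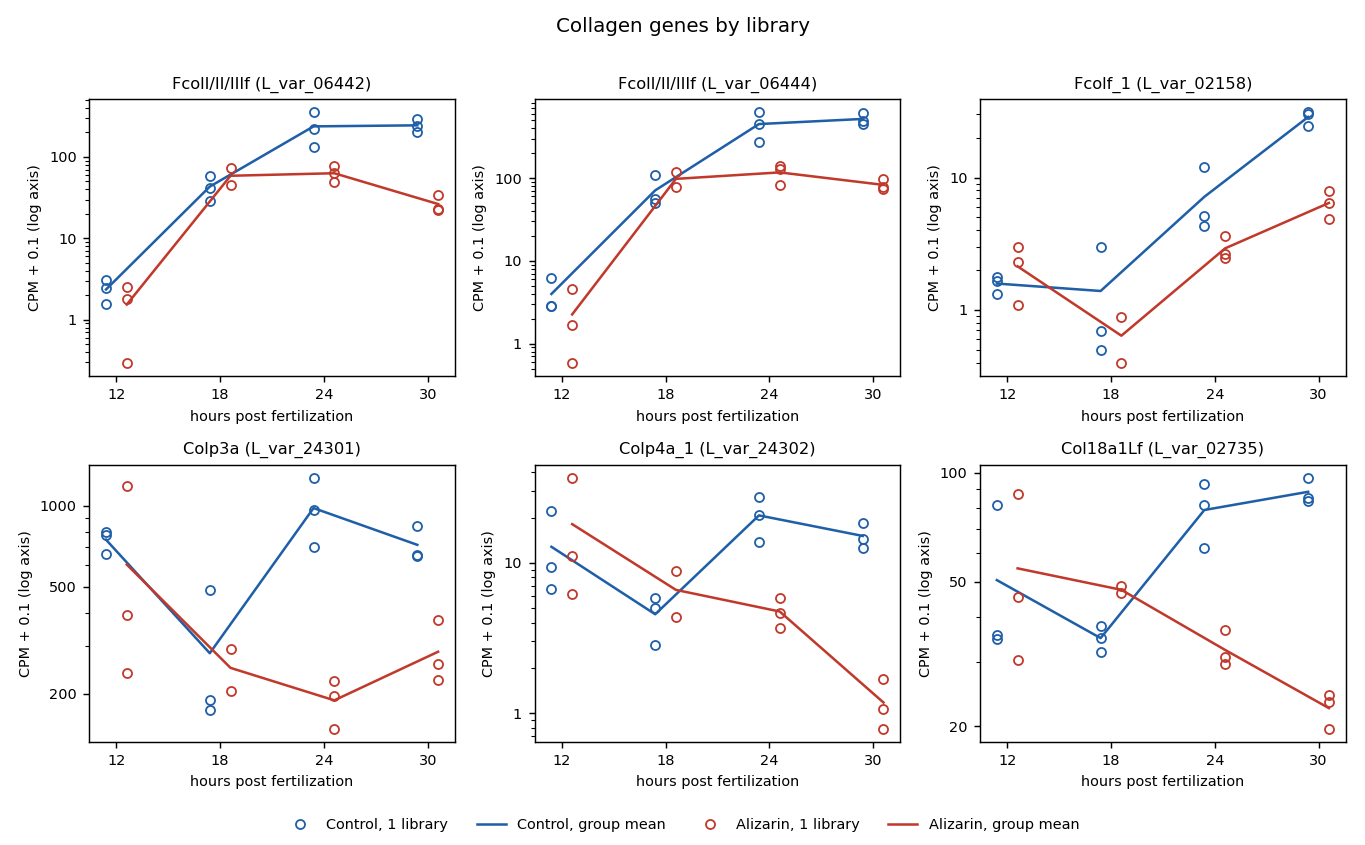
CPM plus 0.1 on a log axis against hours post fertilisation for 6 collagen IDs; each circle is 1 library and lines join group means, control in blue and alizarin in red. FcolI/II/IIIf levels of both groups overlap at 12 and 18 hpf and separate at 24 and 30 hpf; Colp3a rises again after 18 hpf in controls but stays between 148 and 375 CPM in the alizarin libraries of 24 and 30 hpf.

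Among the other collagens 2 of 7 tested IDs fell at 24 hpf (0.722% of all genes tested) and 2 at 30 hpf (2.2%). Colp3a, Colp4a_1 and Colp4a_2 carry the names of sea urchin procollagen chains of the type IV, basement membrane kind. Colp3a (L_var_24301) read 700 (control A), 1271 (control B) and 966 CPM (control C) at 24 hpf, and 148, 196 and 223 CPM with alizarin. The alizarin libraries all lay below the controls, 5.18-fold in the means (log2 fold change -2.38, SE 0.48, adjusted p = 0.0217). Colp4a_2 (L_var_24303) went from 306, 453 and 331 CPM to 85.2, 113 and 119 CPM at that time (-1.78, SE 0.39, adjusted p = 0.0326). Both calls were lost when any 1 of control B, control C or the 3 alizarin libraries of 24 hpf was left out, with adjusted p up to 0.149 for Colp3a and 0.182 for Colp4a_2, whose call was also lost without control 30 hpf A or C. At 30 hpf the gap was narrower for both and missed the threshold, at 2.50-fold for Colp3a (-1.32, SE 0.46, adjusted p = 0.131) and 2.49-fold for Colp4a_2 (-1.32, SE 0.38, adjusted p = 0.0626), although the groups still did not overlap. In edgeR the difference of the alizarin effect between the times was called for neither ID (adjusted p = 0.241 for Colp3a and 0.376 for Colp4a_2).

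Colp4a_1 (L_var_24302) had the larger gap at 30 hpf, and 24 against 30 hpf was not tested by itself for any of these IDs. Its controls read 13.7, 27.5 and 20.6 CPM at 24 hpf and 14.4, 18.3 and 12.4 CPM at 30 hpf. The alizarin libraries read 3.61, 5.78 and 4.55 CPM at 24 hpf and 0.959, 0.684 and 1.59 CPM at 30 hpf. The means of 30 hpf differed 13.9-fold (log2 fold change -3.79, SE 0.64, adjusted p = 0.00249), while the 24 hpf difference missed the threshold (-2.15, SE 0.56, adjusted p = 0.0727). The effect differed between times (adjusted p = 0.0289), a call lost in 10 of 23 fits without 1 library. The log2 CPM of Colp3a correlated with that of Colp4a_2 at r = 0.971 and with that of Colp4a_1 at r = 0.757 over the 23 libraries, which share their depth and treatment structure.

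Collagen XVIII, a basement membrane collagen that carries heparan sulfate chains, was represented by 12 IDs named Col18a1Lf. They share 1 protein match in the annotation with Fcolf_2 (L_var_23616), named as a fibrillar collagen, so the kind of collagen rests on the names. Of the 12 Col18a1Lf IDs L_var_02735 was called. It stood at 84.9, 96.8 and 83.6 CPM in controls of 30 hpf and 23.2, 24.3 and 19.6 CPM with alizarin, 3.96-fold apart in the means (log2 fold change -1.99, SE 0.34, adjusted p = 0.00301). The call held without any 1 library (highest adjusted p = 0.0304). At 24 hpf the values were 61.9, 93.0 and 81.5 CPM against 29.5, 36.7 and 30.9 CPM (-1.28, SE 0.33, adjusted p = 0.0727), again with no overlap. Control means were 34.9, 78.8 and 88.4 CPM at 18, 24 and 30 hpf, and those with alizarin 47.4, 32.4 and 22.3 CPM. The difference between times was called (adjusted p = 0.043) and lost in 18 of 23 fits without 1 library. Another tested ID of that symbol, L_var_01304, was at 6.16 CPM in controls and 9.94 CPM with alizarin at 30 hpf (0.69, adjusted p = 0.568).

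Of the laminins, the cross-shaped glycoproteins of the basement membrane, 8 of 9 IDs were tested, and edgeR called 0 of them between alizarin and control at any matched time. Before adjustment p was under 0.05 for 3 higher at 12 hpf (16.1% of all genes), 1 lower at 24 hpf (11.8%) and 3 lower at 30 hpf (16.7%). DESeq2 called 1, Lamb2_1 (L_var_05967) at 12 hpf, where it called 3.79% of all genes. The alpha chain ID LamaLf (L_var_25560) stood at 658, 1172 and 863 CPM in controls of 24 hpf and 243, 244 and 468 CPM with alizarin (log2 fold change -1.50, SE 0.48, adjusted p = 0.176). At 30 hpf it read 638, 843 and 608 CPM against 268, 287 and 346 CPM (-1.21, SE 0.48, adjusted p = 0.188). All alizarin libraries lay below all controls at both times without passing the test. The beta chain Lamb2_1 (L_var_05967) overlapped at 24 hpf, with 143 to 247 CPM in controls and 149 to 252 CPM with alizarin (0.03, SE 0.29, adjusted p = 0.987). At 12 hpf it was at 80.7 to 113 CPM in controls and 183 to 197 CPM with alizarin (0.96, SE 0.29, adjusted p = 0.13).

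Nidogen (L_var_14276), which bridges laminin and type IV collagen, differed little between the groups at the later times. At 30 hpf it read 1409 (control A), 1200 (control B) and 1230 CPM (control C), and 1079, 1438 and 1235 CPM with alizarin, so the groups overlapped (log2 fold change -0.03, SE 0.26, adjusted p = 0.974). At 18 hpf both alizarin libraries, at 804 and 760 CPM, lay below the controls at 1023, 1121 and 1194 CPM without passing (-0.51, SE 0.29, adjusted p = 0.914).

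The Frem genes code for very large proteins of the outer basement membrane, where in vertebrates Frem and Fras proteins hold epithelium and underlying tissue together. Frem1L (L_var_01008) and Frem2_2 (L_var_01009) fell together at 30 hpf. Frem1L read 159, 221 and 140 CPM in controls and 25.7, 50.7 and 43.5 CPM with alizarin (4.33-fold in the means, log2 fold change -2.11, SE 0.47, adjusted p = 0.0169). Frem2_2 read 56.0, 76.4 and 48.1 CPM against 10.2, 19.6 and 15.9 CPM (-1.98, SE 0.42, adjusted p = 0.0129). Neither pair of groups overlapped, and the log2 CPM of these IDs correlated at r = 0.989 over the 23 libraries. Both were lost without control B, alizarin A or alizarin C of 30 hpf (adjusted p up to 0.0842 and 0.0694), and without the 4 libraries that stood apart (adjusted p = 0.0789 and 0.0595).

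At 18 hpf the order of the groups was the other way round for Frem1L, with 103, 144 and 126 CPM in controls and 296 and 153 CPM with alizarin (0.85, SE 0.49, adjusted p = 0.914). Its difference between times did not pass in edgeR (adjusted p = 0.0559). Frem2_1 (L_var_01010) had a smaller gap at 30 hpf, with 613, 789 and 576 CPM in controls against 366, 379 and 441 CPM (-0.74, SE 0.42, adjusted p = 0.397). Fras1 (L_var_25771) read 27.2, 36.1 and 21.9 CPM against 11.03, 15.1 and 13.9 CPM at 30 hpf (-1.09, SE 0.33, adjusted p = 0.0783). Every alizarin library lay below every control at 30 hpf for these 4 IDs (17.8% of all genes), and 2 of them passed (2.2% called lower). Frem1L, Frem2_2 and Frem2_1 share 1 protein match in the annotation, so their values may not be independent.

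**Figure D3:**
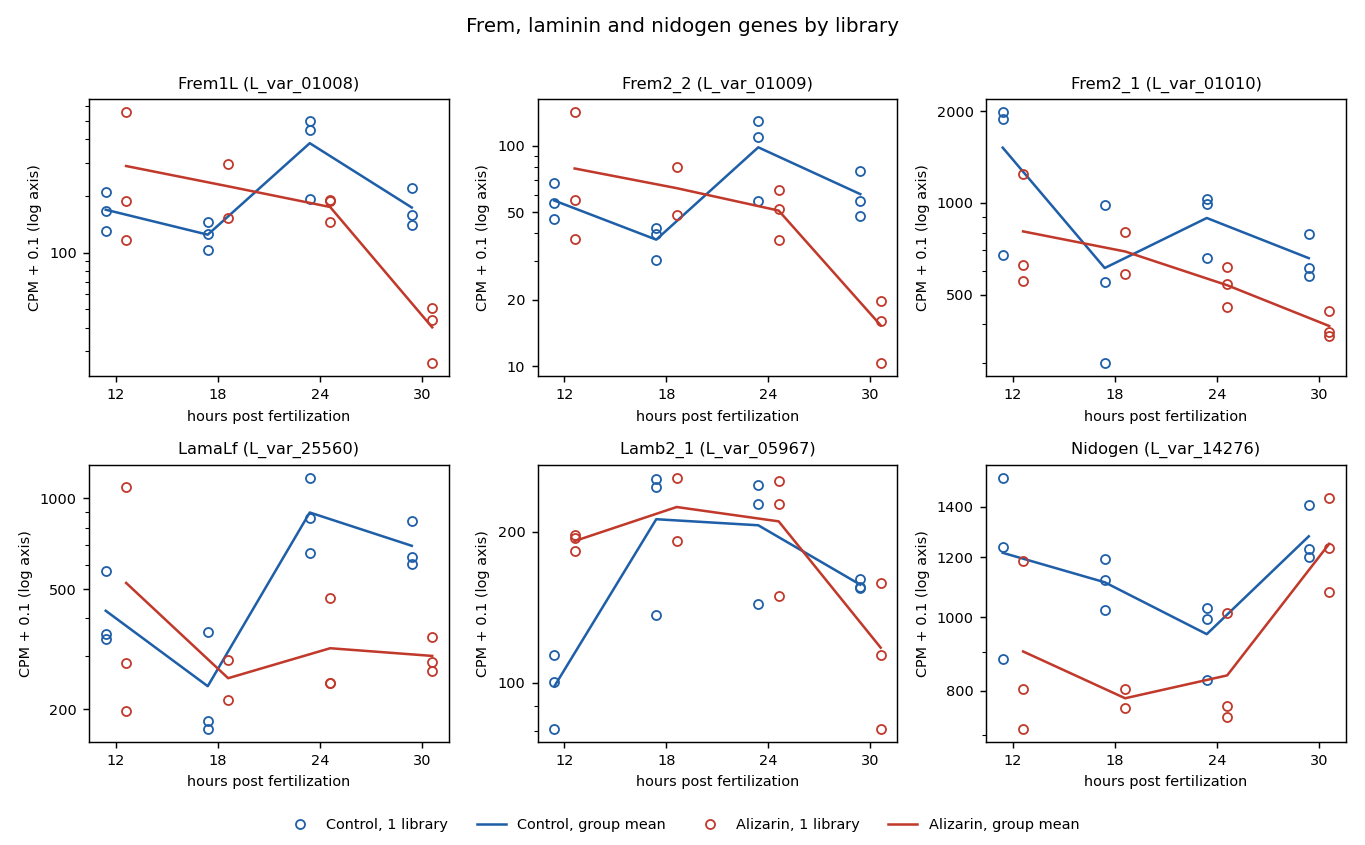
CPM plus 0.1 on a log axis against hours post fertilisation for 3 Frem, 2 laminin and 1 nidogen ID; each circle is 1 library and lines join group means, control in blue and alizarin in red. The 3 alizarin libraries of 30 hpf lie below all controls for Frem1L, Frem2_2, Frem2_1 and LamaLf, and are mixed with them for Nidogen; alizarin 12 hpf A is the high red circle at 12 hpf in the Frem1L, Frem2_2 and LamaLf panels.

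The fibrillins, microfibril proteins, and the integrin alpha chain had few reads; 2 fibrillin IDs and the integrin ID were tested, and edgeR called 0 of them at any matched time or in the mean over times. Fbn3 (L_var_16164), named after its values were seen, was at 0 in the 3 controls of 12 hpf and at 2.76, 0.192 and 0.197 CPM with alizarin (unadjusted p = 0.00473, adjusted p = 0.143). Most of its reads lay in a pair of libraries, with 35 in alizarin 12 hpf A and 24 in alizarin 24 hpf A against at most 4 in any other. Its mean effect over the 4 times was called by DESeq2 (adjusted p = 0.0474) and not by edgeR (adjusted p = 0.0711). Fbn3L (L_var_11435), the fibrillin with most reads, had 0 to 1.70 CPM over all libraries. ItgaL (L_var_00609) was at 9.57 CPM in control 18 hpf A, 5.11 CPM in control 24 hpf B and at most 1.59 CPM in any other library.

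The Timp genes moved in both directions. Their 11 IDs are numbered without a gap from L_var_06190 to L_var_06200; genome positions were not analysed here. Of the 9 tested, 1 rose (0.119% of all genes) and 1 fell (0.722%) at 24 hpf, and 3 rose (1.12%) and 1 fell (2.2%) at 30 hpf. Timp3 (L_var_06196), whose vertebrate namesake is bound to the matrix and inhibits Mmp, Adam and Adamts proteases, rose most. At 30 hpf it read 0.840, 1.31 and 1.43 CPM in controls and 9.11, 22.7 and 13.1 CPM with alizarin, 12.6-fold apart in the means (log2 fold change 3.65, SE 0.53, adjusted p = 6.80e-04). At 24 hpf the values were 0.784, 2.29 and 4.18 CPM against 23.03, 27.0 and 14.8 CPM (3.16, SE 0.50, adjusted p = 0.00336). Both calls held without any 1 library.

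Timp3 levels already stood apart at 18 hpf. The 18 hpf controls were at 4.59, 5.76 and 5.37 CPM and both alizarin libraries at 20.3 and 28.1 CPM (log2 fold change 2.20, SE 0.50). This difference did not pass in edgeR (unadjusted p = 2.66e-04, adjusted p = 0.306), which called 0% of all genes at 18 hpf. DESeq2 called it (adjusted p = 0.0141). At 12 hpf the order was reversed and small, with 2.28, 2.85 and 2.02 CPM in controls and 1.89, 1.63 and 0.493 CPM with alizarin (-0.81, SE 0.51, adjusted p = 0.439). Control means were 5.24, 2.42 and 1.19 CPM at 18, 24 and 30 hpf. The effect differed between times (adjusted p = 0.0163), a call lost without control 30 hpf A (adjusted p = 0.0505). The other ID named Timp3, L_var_06197, was under 3 CPM in every library.

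Timp2d (L_var_06198) also rose at 30 hpf, from 2.42, 0.871 and 1.07 CPM in controls to 7.51, 8.55 and 9.78 CPM (2.55, SE 0.59, adjusted p = 0.0215). Timp4b (L_var_06200) rose 2.22-fold, from 24.99, 27.6 and 26.2 CPM to 43.8, 68.0 and 62.8 CPM (1.15, SE 0.27, adjusted p = 0.026). Over the 4 times the Timp4b mean in controls was 139, 57.0, 42.9 and 26.2 CPM, and with alizarin it was 116, 71.8, 43.9 and 58.2 CPM. At 24 hpf the Timp4b groups overlapped (0.03, SE 0.27, adjusted p = 0.982). The calls of 30 hpf were lost for Timp2d without control B, control C, alizarin B or alizarin C of that time and without the 4 libraries that stood apart (adjusted p = 0.0634), and for Timp4b without any 1 of these 4 or control A (up to adjusted p = 0.107 and 0.11).

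Timp4 (L_var_06199) moved the other way. It rose in controls between 18 and 24 hpf and read 35.3, 28.0 and 39.6 CPM at 24 hpf, against 7.30, 9.41 and 8.45 CPM with alizarin (log2 fold change -2.03, SE 0.38, adjusted p = 0.00999). At 30 hpf controls were at 57.0, 50.4 and 61.8 CPM and alizarin libraries at 25.6, 11.1 and 9.16 CPM (-1.89, SE 0.37, adjusted p = 0.00856). The groups did not overlap at 18 hpf either, at 9.17, 11.8 and 6.93 CPM against 4.35 and 5.82 CPM (-0.87, SE 0.43, adjusted p = 0.881). The call at 24 hpf was lost without alizarin 24 hpf A (adjusted p = 0.088) and that at 30 hpf without alizarin 30 hpf B or C (up to adjusted p = 0.0607).

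**Figure D4:**
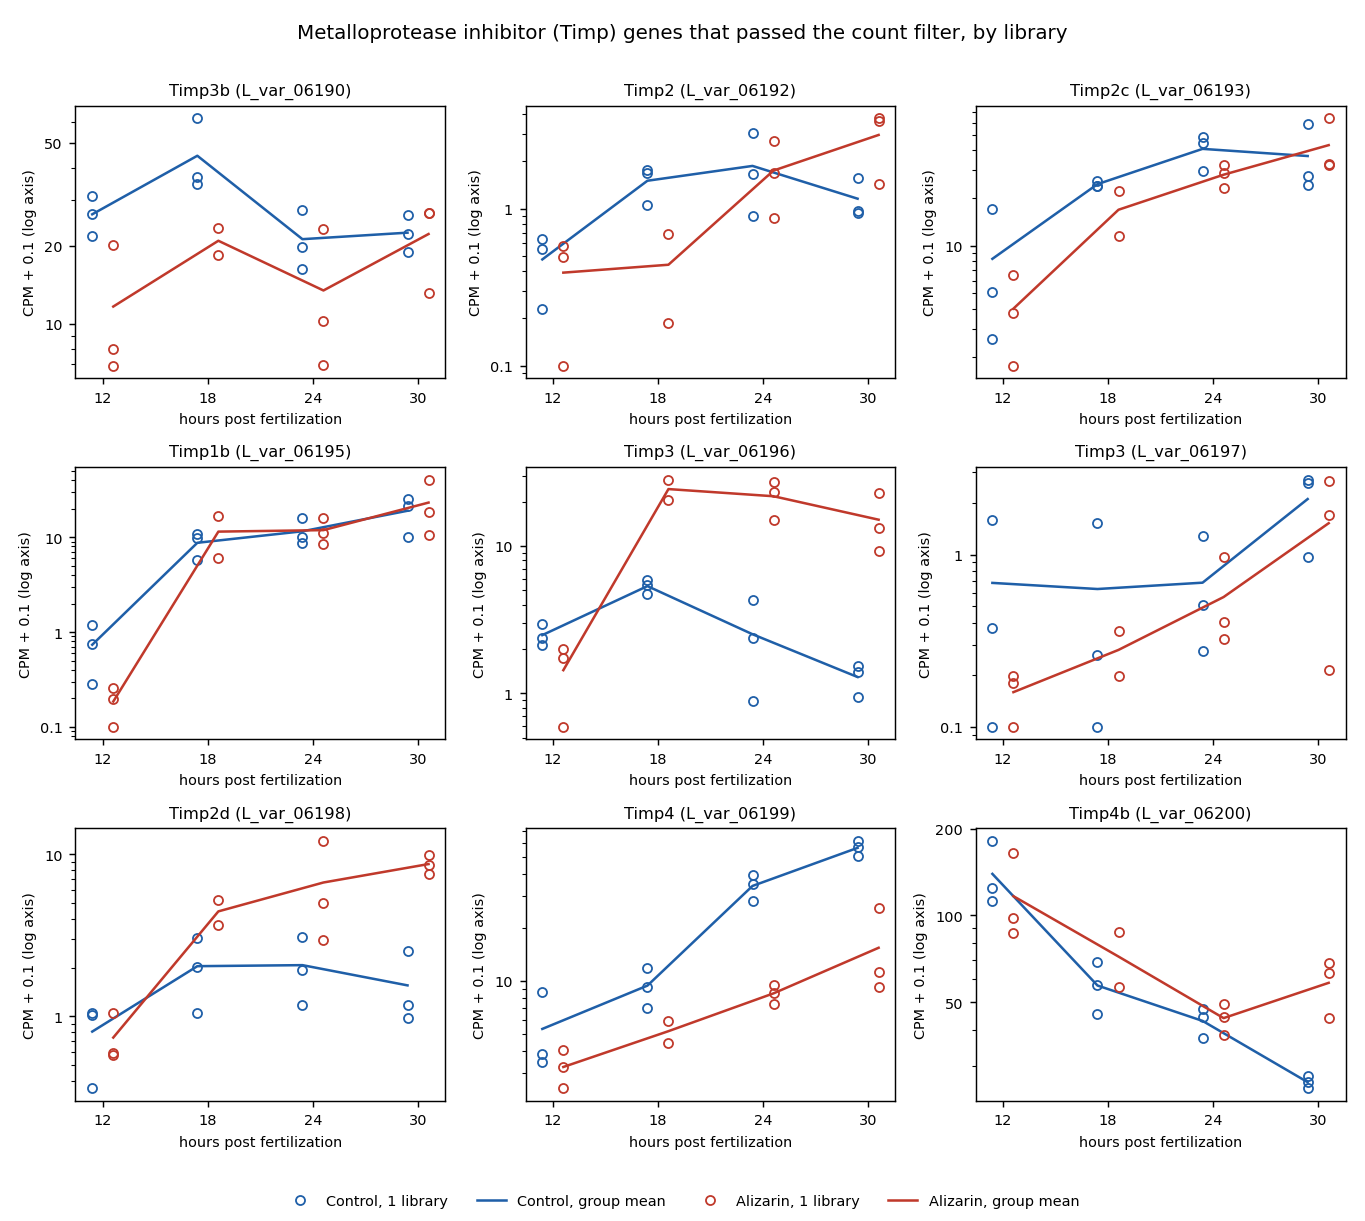
CPM plus 0.1 on a log axis against hours post fertilisation for the 9 Timp IDs that passed the count filter; each circle is 1 library and lines join group means, control in blue and alizarin in red. Every red circle lies above the blue ones for Timp3 (L_var_06196) and below them for Timp4 from 18 hpf on; for Timp1b (L_var_06195) the colours mix from 18 hpf on.

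Few IDs with protease names passed the test at single times. Adamts proteins are secreted proteases that cut proteoglycans and procollagens, but whether each ID codes for a protease was not checked. Of 15 tested IDs with Adamts or Adamts-like names 1 fell at 30 hpf (2.2% of all genes). AdamtsL (L_var_23413) read 8.61, 11.3 and 12.6 CPM in controls and 3.20, 2.17 and 4.15 CPM with alizarin (log2 fold change -1.77, SE 0.48, adjusted p = 0.0447). At 30 hpf libraries of the same letter varied together, though the labels do not say what a letter stands for. With the letter as a block adjusted p = 0.0707, and it was 0.057 with upper quartile scaling. Leaving out 1 library ended the call in 15 of 23 fits, among them each of the 6 libraries of 30 hpf (up to adjusted p = 0.183). Adamts14L (L_var_25793), the Adamts gene with most reads, read 21.6, 19.7 and 32.8 CPM against 11.2, 7.64 and 19.8 CPM at 30 hpf, with overlapping groups (-0.94, SE 0.49, adjusted p = 0.358).

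Adam10 (L_var_06388), a membrane protease that sheds surface proteins such as Notch ligands and receptors, read 138, 120 and 125 CPM in controls and 135, 205 and 183 CPM with alizarin at 30 hpf (0.45, SE 0.23, adjusted p = 0.321). Tll1_2 (L_var_26244), named for tolloid proteases that trim procollagens and release Bmp signals, read 166, 194 and 172 CPM against 184, 243 and 221 CPM (0.28, SE 0.27, adjusted p = 0.665). The groups overlapped for both genes at that time.

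No Mmp gene passed at a single time in edgeR among the 9 tested; before adjustment p was under 0.05 for 1 lower at 12 hpf (16.1% of all genes in either direction), 1 lower at 18 hpf (5.67%), 1 higher and 1 lower at 24 hpf (11.8%), and 2 higher and 1 lower at 30 hpf (16.7%). DESeq2 called 0. Averaged over the 4 times, 2 fell (2.93% of all genes). Mmp16 (L_var_05354), named after a membrane-type metalloprotease, was lowest against controls at 18 hpf, with 23.9, 22.7 and 29.9 CPM in controls and 7.74 and 7.30 CPM with alizarin (-1.76, SE 0.59, adjusted p = 0.629). Its effect averaged over the 4 times was -1.15 in log2 fold change (SE 0.26, adjusted p = 0.0138), lost without alizarin 18 hpf B (adjusted p = 0.05001). That of Mmpf (L_var_04496) was -0.92 (SE 0.24, adjusted p = 0.0316), lost in 9 of 23 fits without 1 library and with the library letter as a block within each time (adjusted p = 0.0798). Mmp18/19L4 (L_var_01566) was the Mmp gene with most reads and varied widely, from 416 to 1074 CPM in controls of 24 hpf and from 752 to 2321 CPM with alizarin (1.19, SE 0.70, adjusted p = 0.545). It shares 1 protein match in the annotation with Mmp16.

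**Figure D5:**
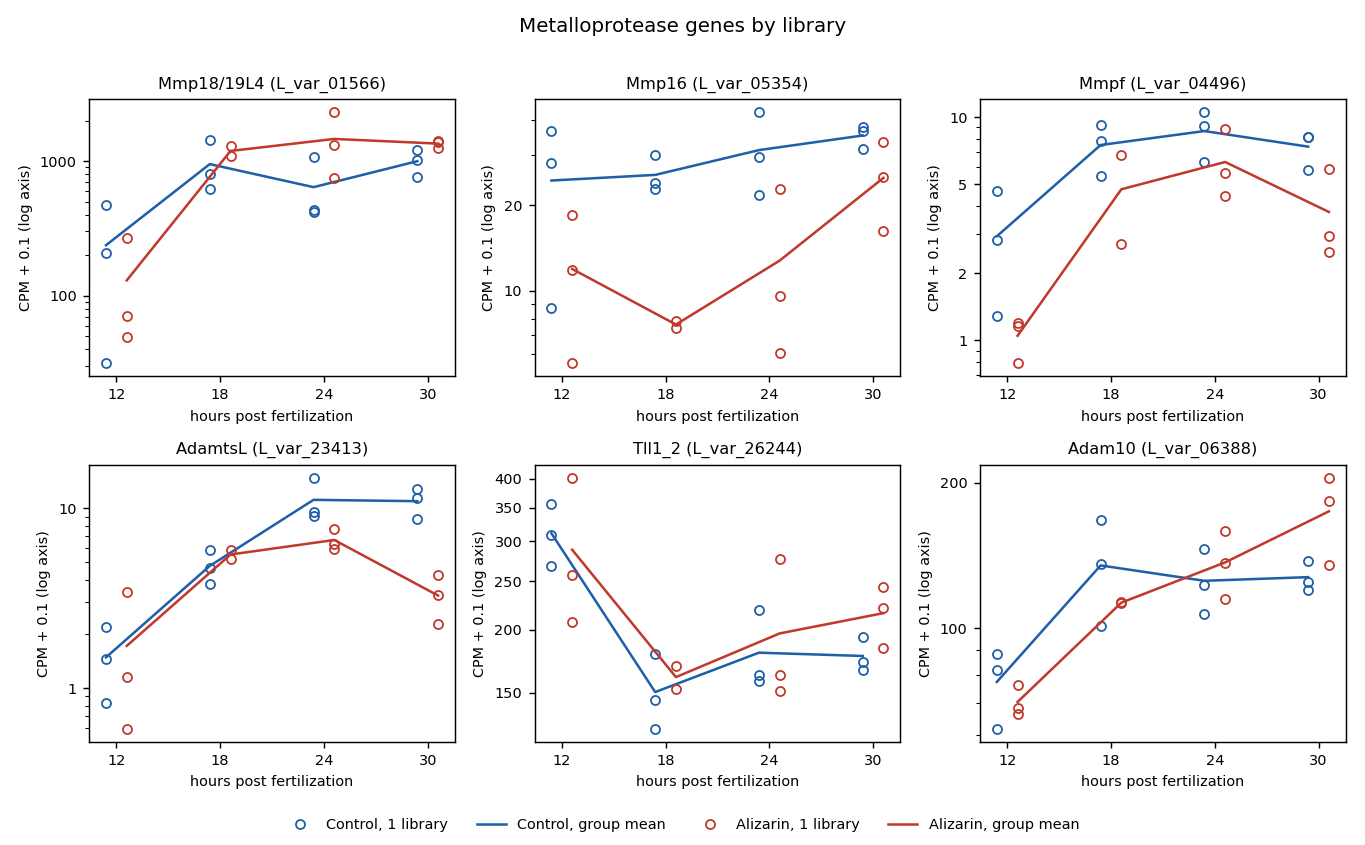
CPM plus 0.1 on a log axis against hours post fertilisation for 3 Mmp IDs, AdamtsL, Tll1_2 and Adam10; each circle is 1 library and lines join group means, control in blue and alizarin in red. For Mmp16 the alizarin mean is below the control mean at every time, and for AdamtsL the groups separate at 24 and 30 hpf; the Tll1_2 circles mix at every time.

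Over the 4 times together 12 members were called (5.04% of all genes), of which 2 rose (2.11%) and 10 fell (2.93%). The mean effect on Timp3 (L_var_06196) was 2.05 (SE 0.25, adjusted p = 1.14e-04) and Timp2d of 1.33 (SE 0.30, adjusted p = 0.0143). The lower ones were Timp4 (-1.39, SE 0.20, adjusted p = 4.32e-04), both FcolI/II/IIIf IDs, Fcolf_1, Colp3a, Colp4a_1, Colp4a_2, Col18a1Lf L_var_02735, Mmp16 and Mmpf. Leaving out 1 library lost Fcolf_1 in 17 of 23 fits, Col18a1Lf in 3 and Colp4a_1 in 1. Leaving out the 4 libraries that stood apart together ended the same calls (adjusted p = 0.0604, 0.073 and 0.0839 in edgeR). Upper quartile scaling ended that of Fcolf_1 too (adjusted p = 0.0535). A mean over times hides the differences between them, which were called for 4 members, Timp3, Colp4a_1, Col18a1Lf L_var_02735 and FcolI/II/IIIf L_var_06442, against 0.505% of all genes tested. That count ranged from 0 to 7 over the fits that left out 1 library, and 19 of the 23 moved it by over 1.5 times; it was 0 without control 30 hpf A and 7 without alizarin 12 hpf A or B.

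Normal development moved many of these genes, which sets the levels above in context. Between 12 and 18 hpf 25 of the 69 tested members were called in controls (14.9% of all genes), of which 18 rose (8.46%) and 7 fell (6.47%). FcolI/II/IIIf L_var_06442 rose 19.1-fold in the means (log2 fold change 4.27, SE 0.53, adjusted p = 1.53e-05) and L_var_06444 18.3-fold (4.20, SE 0.55, adjusted p = 2.96e-05). Of 8 tested laminins 5 rose, among them the alpha chain ID Lama2f_1 (L_var_25385), from at most 0.130 CPM in any control of 12 hpf to 2.37, 2.40 and 2.75 CPM. Of 15 Adamts genes 7 rose, such as Adamts14L, from 1.37, 1.17 and 7.67 to 18.6, 24.2 and 19.1 CPM (2.62, SE 0.53, adjusted p = 0.00218).

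The type IV collagen names went down over the same step: Colp3a from 798, 662 and 781 to 174, 189 and 484 CPM (-1.40, SE 0.46, adjusted p = 0.0463) and Colp4a_2 from 437, 352 and 492 to 98.6, 98.9 and 245 CPM (-1.53, SE 0.39, adjusted p = 0.00997). Mmp1/3L1 (L_var_23250), a low gene, fell from 6.39, 2.98 and 2.15 to 0.949, 0.880 and 0.955 CPM (-2.05, SE 0.60, adjusted p = 0.0255). Tll1_2 fell 2.07-fold (-1.05, SE 0.27, adjusted p = 0.0115) and Frem2_1 2.48-fold (-1.31, SE 0.42, adjusted p = 0.0398). Among these Colp3a lost its call in 15 of 23 fits without 1 library (up to adjusted p = 0.181), Frem2_1 in 5, Mmp1/3L1 in 4, Colp4a_2 in 2 and Tll1_2 in 1. The count of 25 was 13 without control 18 hpf A and 15 without control 18 hpf B.

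Between 18 and 24 hpf 9 members were called in controls (4.98% of all genes); all 9 rose (4.02%) and 0 fell (0.961%). Before adjustment p was under 0.05 for 2 that were lower (19.4% of all genes in either direction). The 9 called higher were the 2 FcolI/II/IIIf IDs (2.46, SE 0.47, and 2.67, SE 0.50), Fcolf_1 (2.42, SE 0.57), Colp3a (1.79, SE 0.47), Colp4a_1 (2.22, SE 0.56), Col18a1Lf L_var_02735 (1.18, SE 0.33), LamaLf (1.91, SE 0.49), Frem1L (1.61, SE 0.46) and Timp4 (1.88, SE 0.37). The 2 FcolI/II/IIIf IDs and Timp4 kept their calls without any 1 library. The count was 3 without control 18 hpf A or control 24 hpf B, 4 without control 18 hpf B or control 24 hpf C and 14 without alizarin 12 hpf A. Between 24 and 30 hpf edgeR called 0 members in controls (0.928% of all genes) and DESeq2 called 1 (2.75%). Before adjustment p was under 0.05 for 2 higher and 4 lower (14.1% of all genes).

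Alizarin embryos were also set against controls collected 6 hours earlier. At 24 hpf with alizarin against control 18 hpf, edgeR called 0 of 69 members (0.152% of all genes) and DESeq2 called 2 (1.16%). Before adjustment p was under 0.05 for 7 higher and 2 lower (8.72% of all genes). Colp3a was at 189 CPM in the mean against 283 CPM (log2 fold change -0.58, SE 0.46), Colp4a_1 at 4.65 against 4.45 CPM (0.07, SE 0.55), Timp4 at 8.39 against 9.29 CPM (-0.15, SE 0.37) and FcolI/II/IIIf L_var_06442 at 63.0 against 43.1 CPM (0.55, SE 0.45). Timp3 was at 21.6 against 5.24 CPM with no overlap (2.04, SE 0.47, adjusted p = 0.0945). Timp3b (L_var_06190) was at 13.4 against 44.4 CPM, also with no overlap (-1.73, SE 0.44, adjusted p = 0.14). These were the members that DESeq2 called (adjusted p = 0.0032 for Timp3 and 0.016 for Timp3b). A missed threshold does not show equal levels. The skeletogenic markers summed to 1650 to 1832 CPM in alizarin 24 hpf and 1732 to 3277 CPM in control 18 hpf, with 0 of 17 called.

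At 30 hpf with alizarin against control 24 hpf, 13 members were called (5.45% of all genes), 2 higher (1.11%) and 11 lower (4.34%). Among the markers 3 of 17 skeletogenic and 2 of 3 pigment cell IDs were called lower (4.34% of all genes). So were 1 of 6 endoderm and 1 of 5 ectoderm IDs, and 0 markers were called higher (1.11%). The part of the markers in the result was not tested. Frem1L was at 40.0 against 381 CPM (-3.25, SE 0.49, adjusted p = 0.00207), Frem2_2 at 15.2 against 98.1 CPM (-2.68, SE 0.43, adjusted p = 0.00248) and Fras1 at 13.3 against 43.5 CPM (-1.70, SE 0.34, adjusted p = 0.00808). Colp4a_1 was 19.1-fold lower in the means (-4.24, SE 0.65, adjusted p = 0.00207) and FcolI/II/IIIf L_var_06442 9.03-fold lower (-3.18, SE 0.48, adjusted p = 0.00207). Timp3 was at 15.0 against 2.42 CPM (2.63, SE 0.49, adjusted p = 0.00616). Of these Fras1 lost its call without control 24 hpf B or alizarin 30 hpf A (up to adjusted p = 0.0532). The count of 13 was 6 without control 24 hpf B, 7 without alizarin 30 hpf C and 8 without control 24 hpf C, alizarin 30 hpf A or alizarin 30 hpf B. These comparisons share libraries with those at matched times.

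Other genes of the matrix were taken from a separate list of 64 IDs for proteins that modify, bind or line it, of which 54 were tested. At 24 hpf 2 fell (0.722% of all genes tested). Sparc_2 (L_var_26142), a collagen-binding glycoprotein gene, had means of 19.2 CPM in controls and 6.01 CPM with alizarin (-1.68, SE 0.34, adjusted p = 0.0229). Hyalin15 (L_var_03194), named after the protein of the hyaline layer that covers the embryo, had means of 2613 and 632 CPM (-2.05, SE 0.46, adjusted p = 0.0402). At 30 hpf 1 fell (2.2% of all genes), FurinL3 (L_var_09398), named after a proprotein convertase that activates secreted proteases, from 99.8 to 33.5 CPM (-1.57, SE 0.39, adjusted p = 0.0302). Over the 4 times together 5 rose (2.11% of all genes) and 6 fell (2.93%). The largest rises in that mean effect were those of Hyal1-2 (L_var_21803, a hyaluronidase name; 1.18, SE 0.21, adjusted p = 0.00283) and DagL (L_var_06210, a dystroglycan name; 0.92, SE 0.23, adjusted p = 0.0248). The largest falls were those of Hmcn1L_4 (L_var_26859, a hemicentin name; -1.26, SE 0.35, adjusted p = 0.0393) and Hyalin15 (-1.24, SE 0.24, adjusted p = 0.00456).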

How the data were processed

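Per the labels' protocols, whole-embryo RNA came from a TRIzol extraction and was sequenced from a DNBSEQ mRNA kit. STAR 2.7.1a is named in the submitters' processing notes; the genome build and the counter are not given in the sources used here. Values are whole-number counts of reads for each gene as the authors deposited them, beside sea urchin names; columns were joined to samples by title. The table's 109578 lines repeat genes, with 27232 IDs, of which 1 was unreadable and left out; 0 IDs had conflicting counts, 0 value columns were unmapped and 4 columns were empty. Coordinates and sequences were not analysed here.

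Genes passing edgeR's filterByExpr (minimum count 10) were 18419. Counts were scaled by TMM (factors 0.616 to 1.41) and fitted with edgeR 4.0.16 in R 4.3.3, quasi-likelihood, 8 groups, 15 residual degrees of freedom, p-values adjusted by Benjamini-Hochberg over all genes tested at 0.05, two-sided. Log2 CPM for correlations used a prior count of 2. DESeq2 1.42.0, other scalings, no filter, a fit on only the 2 groups, replicate blocks and fits without 1 library were alternatives. Deviations of same-letter alizarin and control libraries from their group means correlated at 0.50, 0.66 and 0.57 at 30 hpf. The letters were therefore taken as pairs there, although the labels do not say so and these values are not independent. At the other times not every pair was over 0.1.

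Counts limit precision by counting error as well as by library spread. The members, the lists of markers and matrix genes and the tests were chosen with earlier results of these data known. Named were Timp3 L_var_06196, Fcolf_1, the member with most reads of each role and, per comparison, the called members with the largest changes (up to 8 each way with alizarin, 4 for differences between times, 3 each way for control steps at 2 CPM or more, and 2 each way from the matrix list). Lamb2_1, Fras1, Fbn3, Timp3b, Fcolf_2, Mmpf, AdamtsL, the second Col18a1Lf and the second Timp3 were named after their values were seen.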

Additional observations from a re-analysis of the deposited data

Results flagged for a closer look

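The alizarin effect differed between the 4 times for 4 members, by edgeR's test of the interaction of treatment and time adjusted over all genes. They were Timp3 L_var_06196 (adjusted p = 0.01625), Colp4a_1 L_var_24302 (adjusted p = 0.02891), Col18a1Lf L_var_02735 (adjusted p = 0.04297) and FcolI/II/IIIf L_var_06442 (adjusted p = 0.04297). For Timp3 the log2 fold change was -0.81, 2.20, 3.16 and 3.65 at 12, 18, 24 and 30 hpf. For Colp4a_1 it was 0.50, 0.56, -2.15 and -3.79. For Col18a1Lf it was 0.11, 0.44, -1.28 and -1.99, and for FcolI/II/IIIf -0.60, 0.44, -1.92 and -3.22. The calls were lost in 1, 10, 18 and 17 of the 23 fits that left out 1 library. With the replicate letter as a block FcolI/II/IIIf L_var_06442 also lost its call (adjusted p = 0.0638 within each time and 0.0545 over all libraries). The second FcolI/II/IIIf ID, L_var_06444, was not called in edgeR's test (adjusted p = 0.115).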

How the results depend on the processing

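Counts below are members called of 69 tested. DESeq2 called 2 at 12 hpf (3.79% of all genes), 1 at 18 hpf (0.277%), 8 at 24 hpf (2.74%) and 7 for the difference between times (3.94%). It called 1 for control 30 over 24 hpf (2.75%) and 2 for alizarin 24 over control 18 hpf (1.16%). Upper quartile scaling gave 2 for the difference between times. Fits on only the 2 groups compared gave 19 at 30 hpf, 5 for control 18 over 12 hpf, 5 for control 24 over 18 hpf and 1 for control 30 over 24 hpf. Leaving out the 4 libraries that stood apart, chosen after seeing the data, gave 5 at 12 hpf (8.06% of all genes) and 7 at 30 hpf (2.49%). The causes were not tested. The replicate block within each time gave 8 at 24 hpf (1.65% of all genes), where same-letter libraries did not all vary together. At 30 hpf, where they did, it gave 11 (4.01%) and AdamtsL alone lost its call. The replicate block over all libraries gave 1 for control 30 over 24 hpf (1.19% of all genes). In the mean over times the replicate block within each time ended the call of Mmpf (adjusted p = 0.0798) and added Timp3b (0.0417) and LamaLf (0.0436). For the difference between times FcolI/II/IIIf L_var_06442 lost its call under both replicate blocks (0.0638 and 0.0545), and for control 18 over 12 hpf Colp3a (0.0513), Mmpf, Adam/TsL3 and Adam/Ts6/10L1 did so under the block over all libraries. Without 1 library the calls ranged from 0 to 2 at 12 hpf, 1 to 9 at 24 hpf, 5 to 18 at 30 hpf and 0 to 7 for the difference between times. They ranged from 13 to 28 for control 18 over 12 hpf, 3 to 14 for control 24 over 18 hpf, 0 to 1 for control 30 over 24 hpf and for alizarin 24 over control 18 hpf, and 6 to 14 for alizarin 30 over control 24 hpf. The log2 fold changes of the named members were recomputed for every comparison but the difference between times. None that was called changed its sign, and changes of sign in those not called were not counted. Of the recomputed values 4696 stayed on their side of the threshold, 129 lost it and 40 gained it.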
